A study of Rattus norvegicus with 10 samples.

Results

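Dbp, Tef, Hlf and Nfil3 encode transcription factors of the bZIP class that carry the signal of the circadian clock to its output genes. They were taken as the rows of the count matrix whose RefSeq identifier belongs to those symbols. Of the 4 names, 3 had a row, 1 row each (Dbp, NM_012543; Tef, NM_019194; Nfil3, NM_053727), among 32041 rows in all, and all 3 were among the 22447 rows tested. No row was matched to Hlf, which was not analysed here. The genes were selected on the measured difference between the groups in these same data, lower Dbp and higher Nfil3 in stimulated rats, so that difference is given as a description, with no test. By that contrast 3 of the 3 measured genes had an unadjusted p-value under 0.05 in edgeR, as had 9.86% of all tested features, and nothing is read from this count.

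Messenger RNA was sequenced from a piece of the left hippocampus holding CA3 and the dentate gyrus of 10 male Sprague-Dawley rats, an outbred strain. In 5 sham rats (rats 1 to 5) electrodes were implanted in the lateral amygdala without current. In 5 stimulated rats (rats 6 to 10) the same electrodes carried pulses of 400 µA (60 Hz, 30 min, longer where needed) that set off status epilepticus, a continuous seizure state, which was ended with diazepam. Each of these animals was recorded by video EEG before the end of the experiment and had spontaneous seizures; the time from the last seizure to tissue collection was not given in the sources used here. Tissue was taken 3 months after induction, under CO2 anaesthesia in both groups. Rats were age-matched and were kept on a light and dark cycle of 12 h. The hour at which tissue was taken was not given in the sources used here, so a difference in hour between rats or groups was not tested.

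DBP, TEF and HLF form the PAR family, named after a domain rich in proline and acidic amino acids. They activate genes through a DNA element called the D-box, and Nfil3 (also known as E4BP4) represses through the same element. In tissues with a strong rhythm, Dbp is switched on directly by the clock proteins CLOCK and BMAL1 at E-box elements, and Nfil3 cycles in the opposite phase. In the brain the PAR factors are known for their link to epilepsy: mice lacking all of them have spontaneous seizures and low pyridoxal phosphate, the active form of vitamin B6, since their target Pdxk encodes pyridoxal kinase. Nfil3 is also induced by cyclic AMP and calcium signals, as is Fos, the classical marker of recent neuronal activity.

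The elements through which these factors act and are controlled were looked up in rat promoters. They were searched on both strands of RefSeq promoter windows of the GRCr8 assembly (300 bases, from 250 before to 50 after an annotated start). Where a gene examined had more than 1 window, only the first was searched for it. The letters were CACGTG and CACGTT (E-box and its variant), TTATGTAA and TTACGTAA (D-box), and TGAGTCA and TGACTCA (AP-1, the site of Fos). For the core of the cyclic AMP response element (CRE) they were TGACG, which also lies within the full TGACGTCA. Windows were matched for Dbp, Tef and Nfil3. The Per2 window is shown because it held the D-box, and Ciart and Pdxk because they are a clock gene and a PAR target described below. Capitals mark the match, and each line reads 5′ to 3′ on the strand of the gene.
Per2 D-box, chr9:99497168-99497195, minus strand: catgtgcgtcTTATGTAAagagagcgac
Tef E-box, chr7:115206619-115206644, plus strand: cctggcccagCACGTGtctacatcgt
Ciart E-box, chr2:186112324-186112349, minus strand: tatctagagtCACGTGttgccggcaa
Pdxk E-box, chr20:10209808-10209833, plus strand: gctgtgcgccCACGTGctgcagcgca
Nfil3 CRE core, chr17:12432357-12432381, plus strand: agatggcaaaTGACGgaagcacgaa

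The Tef match began 198 bases before the annotated start and the Nfil3 match 9 bases before it. In Ciart, matches of CACGTG began 93, 35 and 21 bases before the start, and the first is shown. Pdxk held no D-box in its window. Among the clock genes, Bhlhe40 and Bhlhe41 also held CACGTG. The window of Dbp held none of these letters, which says nothing of sites elsewhere in that gene. Of all 33469 windows of this length, 6.42% held CACGTG, 1.01% held a D-box and 21.2% held TGACG, so the CRE core in particular is common. A match is a description of the letters and not evidence of binding.

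Aligned counts ranged from 13552309 to 24086059 per rat, and the authors left 32.0 to 45.1% of reads unaligned, with the highest shares in stimulated rats 8, 9 and 10. Markers of CA3 and dentate granule cells were counted in each rat. Their summed level was 407.7 to 464.3 CPM (counts scaled to library size) in sham for the 3 CA3 markers, 363.3 to 517.3 CPM after stimulation, and correspondingly 162.8 to 201.1 CPM and 71.8 to 259.3 CPM for the 2 tested dentate markers. In sham and stimulated rats respectively, the 5 astrocyte markers summed to 2386 to 2953 CPM and 2425 to 7668 CPM, the 5 endothelial markers to 118.9 to 137.5 CPM and 133.4 to 251.3 CPM, and the 4 neuronal markers to 1696 to 1971 CPM and 1438 to 2067 CPM. The 7 microglial markers summed to 311.2 to 396.4 CPM in the one group and 340.4 to 514.5 CPM in the other. For the 5 oligodendrocyte markers these sums were 2173 to 3158 CPM and 1775 to 2957 CPM. At an unadjusted p-value under 0.05 in edgeR, 3 of 5 astrocyte markers (Aqp4, Gfap and Slc1a3) were higher. So were 3 of 5 endothelial (Pecam1, Flt1 and Cdh5) and 2 of 7 microglial markers (C1qa and C1qb), beside 6.7% of all tested features. None of the markers in these lists was lower at that threshold, beside 3.16% of all tested features. The astrocyte gene Gfap stood at 6469, 2079 and 5396 CPM in rats 7, 9 and 10 but at 1326 and 1375 CPM in rats 6 and 8. The part of cell composition in the values below was not tested, and in tissue RNA fewer cells of a type and less RNA per cell cannot be told apart.

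Dbp, the member under the most direct control of the clock, was lower in stimulated rats. In sham rats 1 to 5 it was counted at 161.0, 107.3, 146.6, 170.1 and 151.2 CPM, and in stimulated rats 6 to 10 at 80.8, 50.8, 74.5, 74.6 and 112.2 CPM. All stimulated rats except rat 10 lay below the lowest sham rat, rat 2, and rat 10 lay just above it. The counting error of these values is small: the 95% exact Poisson interval, which covers counting error alone, was 101.8 to 113.1 CPM in sham rat 2 and 107.6 to 117.1 CPM in stimulated rat 10, so the order of these 2 rats is not settled by the reads. The group means were 147.2 ± 24.1 CPM on average in sham against 78.6 ± 22.0 CPM in stimulated animals (mean ± SD, n = 5 each), and the fitted log2 fold change was -0.91 (SE 0.18), a level 1.87-fold lower. As a share of the sham mean, stimulated rats 6 to 10 held 54.9, 34.5, 50.6, 50.7 and 76.2%.

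Tef, the second PAR factor, differed less between the groups and was even among sham rats, at 366.5, 374.3, 394.4, 381.0 and 371.4 CPM. In stimulated rats 6 to 10 it was counted at 367.0, 208.2, 363.1, 289.0 and 305.5 CPM. Rat 6 was just above and rat 8 just under the lowest sham rat, and rats 7, 9 and 10 were well below all sham rats. The means were 377.5 ± 10.8 CPM on average in sham against 306.6 ± 64.9 CPM in stimulated animals (mean ± SD, n = 5 each), and the fitted log2 fold change was -0.30 (SE 0.13). Without stimulated rat 7 this value was -0.20 (SE 0.085).

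Nfil3, the repressor at the same element, was higher in stimulated rats. It was counted at 6.92, 10.3, 8.06, 7.85 and 8.97 CPM in sham rats 1 to 5 and at 10.9, 43.1, 12.3, 34.9 and 24.3 CPM in stimulated rats 6 to 10. The groups did not overlap, as was so with stimulated rats above in 0.695% of all tested features, but the gap was narrow: stimulated rat 6 (95% exact Poisson interval 9.57 to 12.4 CPM) and sham rat 2 (8.64 to 12.2 CPM) cannot be ordered at this depth. Rats 7, 9 and 10 stood apart at 5.12, 4.14 and 2.89 times the sham mean, and rats 6 and 8 were at 1.29 and 1.46 times. The means were 8.42 ± 1.28 CPM on average in sham against 25.1 ± 14.0 CPM in stimulated animals (mean ± SD, n = 5 each), which corresponds to a fitted log2 fold change of 1.58 (SE 0.33), or 2.99-fold.

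**Figure D1:**
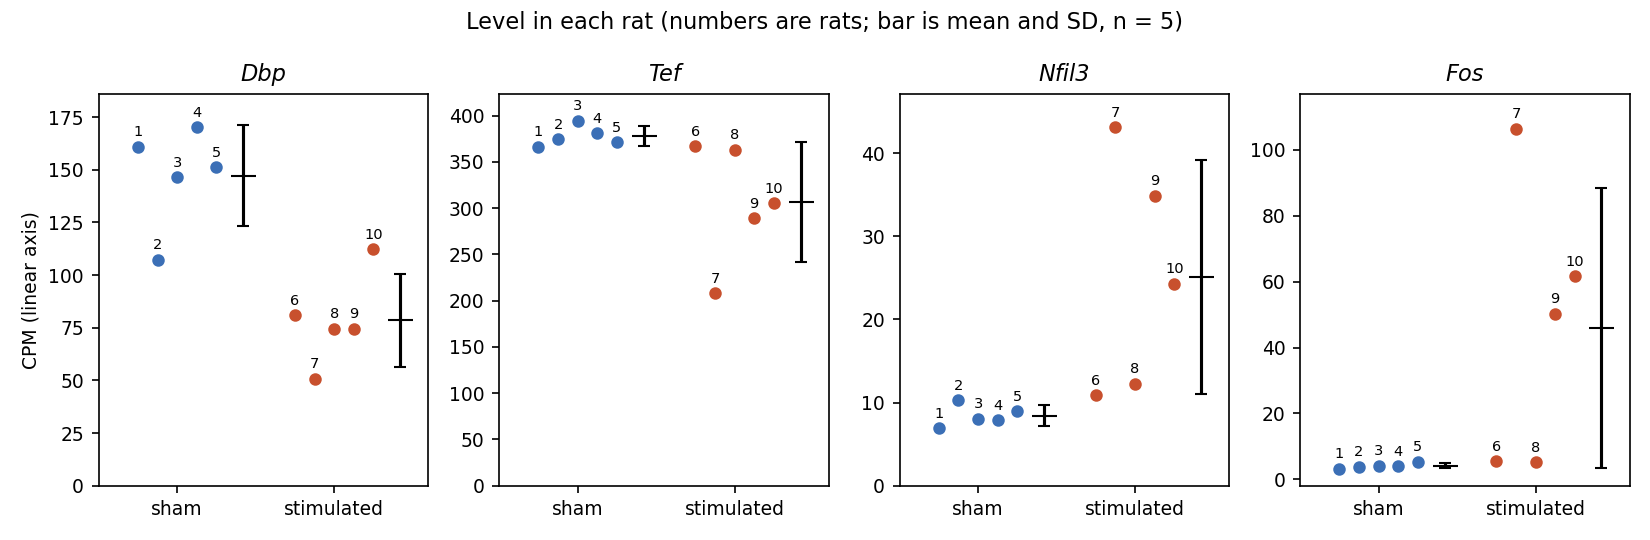
Level of Dbp, Tef, Nfil3 and Fos in CPM (vertical axes, linear) in 5 sham (blue) and 5 stimulated rats (orange). Points are rats, labelled by number, and the bar beside each group is its mean and SD. Dbp was low in stimulated rats 6 to 9, whereas Tef was low and Nfil3 and Fos were high in rats 7, 9 and 10 alone among the stimulated rats, with rats 6 and 8 near the sham level.

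Next, the members were set beside Fos (NM_022197) rat by rat, to ask how far each followed recent neuronal activity. Fos was counted at 3.26, 3.89, 4.14, 4.01 and 5.32 CPM in sham rats 1 to 5 and at 5.61, 106, 5.24, 50.3 and 61.7 CPM in stimulated rats 6 to 10. The 3 rats with high Fos were thus the 3 rats with high Nfil3 and low Tef, and rat 7 was the extreme rat for all of these genes. Dbp did not divide the stimulated rats in this way: rats 6 and 8, at 5.61 and 5.24 CPM of Fos, held 80.8 and 74.5 CPM of Dbp, and rat 10, at 61.7 CPM of Fos, held 112.2 CPM. Rat 7 ran the other way, with the most Fos and the least Dbp, at 50.8 CPM. Because the values of Fos fall into separate sets of rats, each with fewer than 6 rats of a group, no correlation with Fos was computed over the pooled rats.

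When log2 CPM of Fos was added to the fit as a covariate, the log2 fold change of Dbp was -0.86 (SE 0.26), close to the value without it. That of Nfil3 became 0.30 (SE 0.20) and that of Tef became 0.030 (SE 0.12). Fos itself differed between the groups, with a log2 fold change of 3.47 (SE 0.69), so the covariate and the group share much of their variation, and these values are given as a description.

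**Figure D2:**
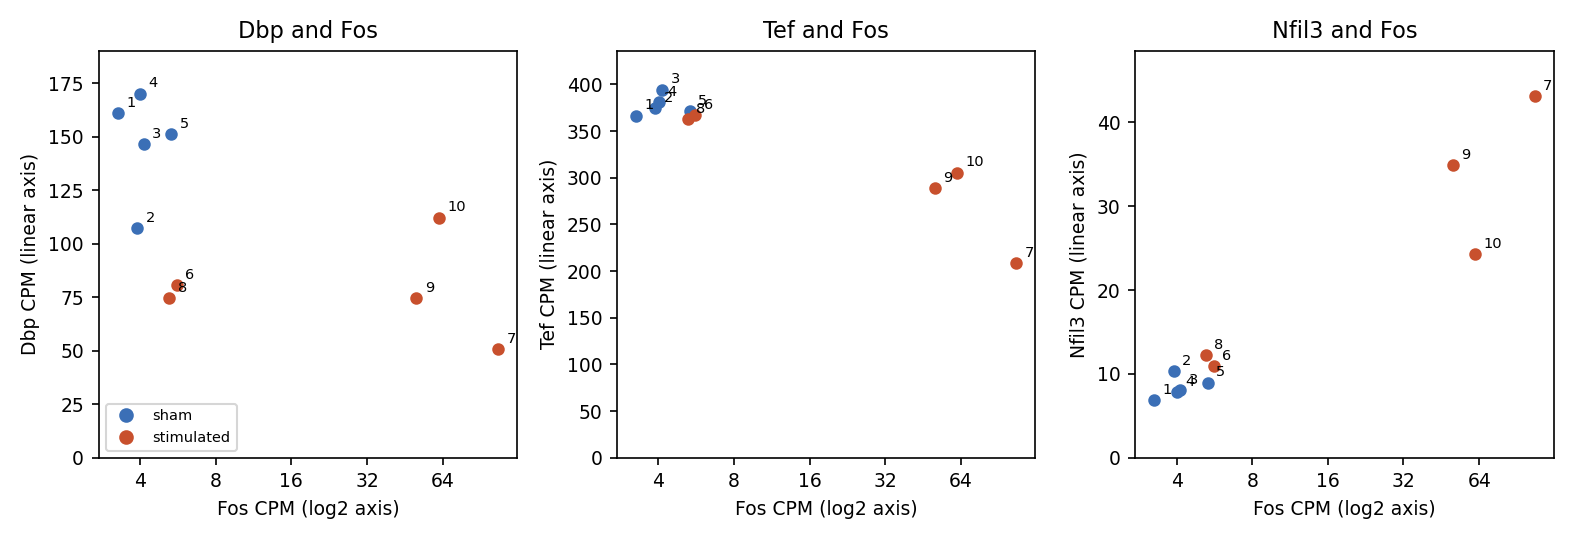
Dbp, Tef and Nfil3 in CPM (vertical axes, linear) against Fos in CPM (horizontal axes, log2 scale) in each rat, sham in blue and stimulated in orange, labelled by rat number. Stimulated rats 6 and 8 sit beside the sham rats for Tef (rat 8 just below the lowest of them), just above them for Nfil3, and below them for Dbp.

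Immediate early genes, which are transcribed within minutes of neuronal activity, were mostly higher in stimulated rats, as Fos was, but not in every rat. Their summed level ran from 188.2 to 237.9 CPM in sham rats and from 177.5 to 2162 CPM in stimulated rats. The lowest stimulated rat was thus below all sham rats. The highest rat was not the same throughout: Arc peaked in rat 9, at 1118 CPM, and Fos in rat 7. The log2 fold change of Arc was 2.66 with all rats and 1.31 without rat 9. Of 13 genes on the list, 12 were higher in stimulated rats and 0 were lower at an unadjusted p-value under 0.05 (quasi-likelihood test of edgeR), where 6.7% of all tested features were higher and 3.16% lower. With library sizes alone in place of TMM factors, features under that threshold were split 1725 higher to 477 lower instead of 1505 to 709. None had an adjusted p-value under 0.05 in the quasi-likelihood test, which held for 0 of all tested features (0%). That depends on the test, as 119 features passed adjustment with edgeR's likelihood ratio test and 32 with DESeq2. Unadjusted p-values of Fos, Egr2 and Fosb were 1.5e-07, 1.0e-05 and 1.2e-05 in that likelihood ratio test. With DESeq2 they were 4.8e-06, 0.00012 and 0.00016. The median log2 fold change of the list was 1.86, beside 0.01 over all tested features. Egr2, a zinc finger transcription factor, had a log2 fold change of 3.32 (SE 0.79) and Fosb, a partner of Jun proteins like Fos, one of 3.33 (SE 0.80), both with an adjusted p of 0.376 in edgeR. The ranges of the groups overlapped in all 13.

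The core loop of the clock, which drives the PAR factors, was examined with a list of 18 genes, of which 16 had a tested row and Rora and Bhlhe41 had none. At an unadjusted p-value under 0.05 in edgeR's test, 3 of 16 were higher (Arntl, Bhlhe40 and Cry1) and 3 of 16 were lower (Nr1d2, Ciart and Nr1d1) in stimulated rats, beside 6.7% and 3.16% of all tested features. None of the 16 had an adjusted p-value under 0.05. The median log2 fold change of the list was 0.08, close to the 0.01 of all tested features.

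The lower genes of the list all encode repressors, as do Bhlhe40 and Cry1 among the higher ones, so this trait does not set the lower genes apart. Nr1d2 (NM_147210), which encodes the nuclear receptor REV-ERB beta, was counted at 25.01, 23.9, 31.5, 23.5 and 21.1 CPM in sham rats 1 to 5 and at 19.0, 12.6, 18.0, 19.4 and 13.8 CPM in stimulated rats 6 to 10. All stimulated rats were below all sham rats, as in 0.597% of tested features, with a log2 fold change of -0.59 (SE 0.15, edgeR adjusted p = 0.376). Ciart (NM_001134593), a repressor of CLOCK and BMAL1, was counted at 7.33, 7.02, 9.58, 9.72 and 11.2 CPM in sham and at 4.93, 8.08, 4.15, 3.52 and 5.83 CPM in stimulated rats. Here rat 7 lay within the sham range and the other stimulated rats below it, with a log2 fold change of -0.76 (SE 0.22, edgeR adjusted p = 0.388). Nr1d1, the gene of REV-ERB alpha, was also lower, at 81.9 ± 3.63 CPM on average in sham against 69.7 ± 8.02 CPM in stimulated animals (mean ± SD, n = 5 each), with 4 of 5 stimulated rats below all sham rats. Its log2 fold change was -0.23 (SE 0.091, edgeR adjusted p = 0.432). Nr1d2 and Ciart kept an unadjusted p-value under 0.05 in edgeR when any 1 of the 10 rats was omitted, and Nr1d1 in 9 of those fits, the exception being that without sham rat 4. With library sizes alone Nr1d1 had an unadjusted p-value of 0.0622.

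Arntl (NM_024362), which encodes BMAL1 and is repressed by the REV-ERB proteins, lay on the other side. It was counted at 19.7, 21.8, 23.4, 21.3 and 20.8 CPM in sham and at 25.6, 31.3, 38.1, 23.8 and 22.0 CPM in stimulated rats. Of the stimulated rats, 4 of 5 were above all sham rats, with the highest value in rat 8, one of the 2 stimulated rats with little Fos. The log2 fold change was 0.40 (SE 0.14, edgeR adjusted p = 0.415), and the unadjusted p-value was above 0.05 without stimulated rat 8, at 0.0595, with a log2 fold change of 0.25. Bhlhe40 (DEC1), a repressor that also responds to neuronal activity, and Cry1, a repressor of CLOCK and BMAL1, had their highest values in rats 7 and 9, at 138.0 and 84.9 CPM for Bhlhe40 and 17.6 and 15.6 CPM for Cry1. Their sham means were 34.3 ± 5.37 and 8.83 ± 0.789 CPM (SD, n = 5 each) and their log2 fold changes 0.91 (SE 0.38, edgeR adjusted p = 0.454) and 0.45 (SE 0.21, edgeR adjusted p = 0.500). Both had unadjusted p-values above 0.05 when rat 7, rat 9, or any of sham rats 1, 2 and 3 was left out, and Cry1 also without sham rat 4 or 5. Without rat 7 their log2 fold changes were 0.41 and 0.26. The unadjusted p-value was also above 0.05 for Bhlhe40 with DESeq2 (0.0614) and for Cry1 among features with at least 10 counts in 5 rats (0.0511).

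The Period genes did not pass even the unadjusted threshold. In the windows searched, Per2 held the E-box variant, a D-box and a CRE core, Per3 held a CRE core alone, and Per1 held none of these. Per1 was counted at 48.0 to 56.4 CPM in sham rats and at 138.9 CPM in stimulated rat 9, the only stimulated rat above the sham range. Stimulated rats 6, 7 and 8 lay below all sham rats, at 45.9, 38.9 and 43.7 CPM, and rat 10 lay within the sham range. Per2, which held the D-box shown above, had a log2 fold change of 0.12 (SE 0.16). By fitted log2 fold change, Per3 was the member of the family nearest to Dbp, at -0.53 (SE 0.25, edgeR adjusted p = 0.512). Per3 was counted at 11.5 ± 3.96 CPM on average in sham against 7.96 ± 2.20 CPM in stimulated animals (mean ± SD, n = 5 each). Its values overlapped: sham rat 2, the sham rat lowest in Dbp, was also the lowest in Per3 at 6.11 CPM.

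**Figure D3:**
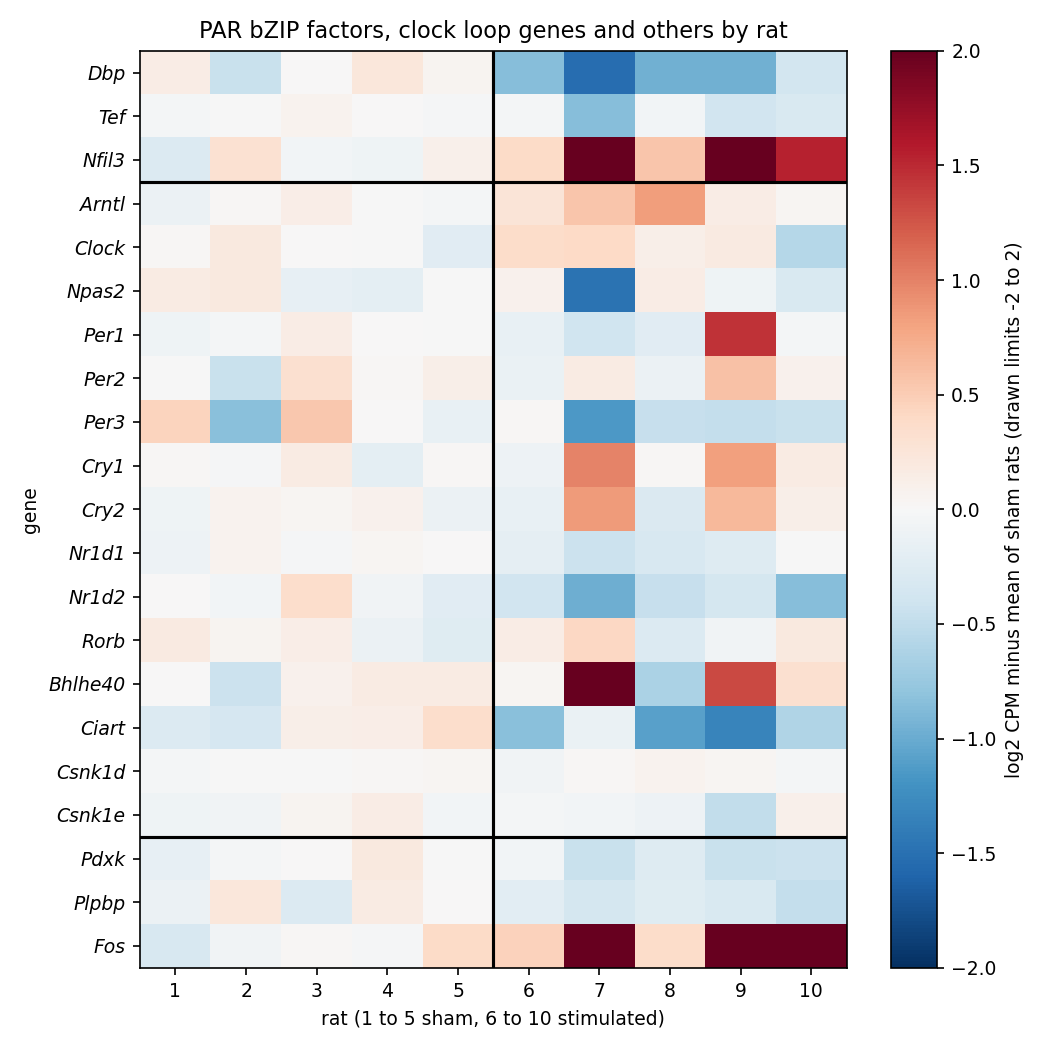
Log2 CPM of each gene minus its mean over sham rats (colour, drawn between -2 and 2) in each rat (columns, 1 to 5 sham and 6 to 10 stimulated), for the 3 members (top), clock loop genes (middle), and Pdxk, Plpbp and Fos (bottom). Dbp, Tef, Nr1d1, Nr1d2, Ciart, Pdxk and Plpbp were below the sham mean in each stimulated rat, Nr1d1 only just so in rat 10. The high values of Nfil3, Bhlhe40, Cry1 and Cry2 lay mainly in rats 7 and 9, and for Nfil3 also in rat 10.

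The difference between the groups chose the members, but the deviation of a rat from the mean of its own group did not, so these deviations were compared between genes. Over 51 pairs (the members with one another and each with 16 clock loop genes; 10 rats), 0 had an adjusted p-value under 0.05 and 11 an unadjusted one under 0.05 (Pearson's r, exact permutation within groups, two-sided). With Spearman's rho 0 pairs passed adjustment. Dbp and Tef, the 2 PAR factors, had r = 0.53 (exact permutation p = 0.223, adjusted 0.599) and rho = 0.31 (exact permutation p = 0.464, adjusted 0.845). Without the 2 rats farthest from the median of Dbp, rats 7 and 10, r was 0.10. The relation rests on rat 7: r was -0.20 without that rat alone and 0.66 without rat 10 alone. For Dbp, 2 of its 16 clock loop pairs had an unadjusted p-value under 0.05. With Per3, r was 0.66 (exact permutation p = 0.0340, adjusted 0.201), rho was 0.49 (exact permutation p = 0.155, adjusted 0.657), and r without rats 7 and 10 was 0.76. With Clock, r was -0.77 (exact permutation p = 0.0356, adjusted 0.201), rho was -0.65 (exact permutation p = 0.0572, adjusted 0.523), and r without rats 7 and 10 was -0.43. The values of Tef and Nfil3 in stimulated rats form separate sets, rats 6 and 8 against rats 7, 9 and 10, so the r of Dbp with Tef spans those sets, and no r of Tef or Nfil3 with clock loop genes is given.

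Genes whose deviations from the group means were most like those of a member were also listed, among features with a symbol and a mean of at least 10 CPM. Such r values are the extremes of 8254 features over 10 rats and are descriptions, and those for Tef and Nfil3 span the separate sets of stimulated rats. For Dbp they were Vcam1 (r = 0.99), an adhesion molecule of vessels and glia, Dcaf11 (0.92), Zfp689 (0.92), Xxylt1 (0.92) and Tnfsf13 (0.90), none of them a gene of the clock list. The lowest were Mcl1, Cpne4 and Adora1 (r = -0.94 for each), of which Cpne4 is one of the CA3 markers. For Tef they were Trerf1, Cxcl12, Kifc3 and Nhlh1 (r = 0.98 to 0.99), with the microglial signalling adaptor Tyrobp at the opposite end (r = -0.995), followed by Wdr1 and Stk40 (r = -0.98 for both). For Nfil3 they were Ifrd1 (0.99), Bdnf (0.98), the neurotrophin whose transcription follows neuronal activity, Slc31a1 (0.97), Sh3gl1 (0.97) and Numbl (0.97), and the lowest were Klf3, Fam81a and Ccpg1 (-0.95 for each).

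Genes that the PAR factors are known to activate were then examined. Of 5 tested targets, 0 were higher and 1, Pdxk, was lower at an unadjusted p-value under 0.05 in edgeR, beside 6.7% and 3.16% of all tested features respectively. Pdxk (NM_031769) was counted at 9.83, 10.7, 11.05, 12.6 and 10.9 CPM in sham rats 1 to 5 and at 10.54, 8.03, 9.13, 8.06 and 8.15 CPM in stimulated rats 6 to 10. Of the stimulated rats, all but rat 6 were below all sham rats. The log2 fold change was -0.33 (SE 0.13, edgeR adjusted p = 0.432), and the unadjusted p-value was above 0.05 without sham rat 4, at 0.0725. Por, the reductase that serves cytochrome P450 enzymes, and Alas1, the first enzyme of haem synthesis, differed by 0.0019 (SE 0.096) and 0.16 (SE 0.14) on the log2 scale. Ppara, a nuclear receptor of lipid metabolism, was counted at 2.90 ± 0.584 CPM on average in sham against 1.89 ± 1.13 CPM in stimulated animals (mean ± SD, n = 5 each), and its fitted log2 difference was -0.62 (SE 0.36, edgeR adjusted p = 0.586).

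Among 6 genes of vitamin B6 handling, of which Pdxk is one, 0 were higher and 2 lower at an unadjusted p-value under 0.05, beside 6.7% and 3.16% of all tested features. The other was Plpbp (NM_001107320), a protein that binds pyridoxal phosphate and whose loss causes seizures that respond to vitamin B6. It was counted at 20.1 to 28.5 CPM in sham and at 21.0, 19.1, 20.6, 19.7 and 17.4 CPM in stimulated rats 6 to 10, with rats 6 and 8 inside the sham range. Its log2 fold change was -0.33 (SE 0.11, edgeR adjusted p = 0.414). Pdxp, which removes the phosphate from pyridoxal phosphate, had a log2 fold change of -0.07 (SE 0.069, edgeR adjusted p = 0.767). The median of the list was -0.06, beside 0.01 over all tested features.

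**Figure D4:**
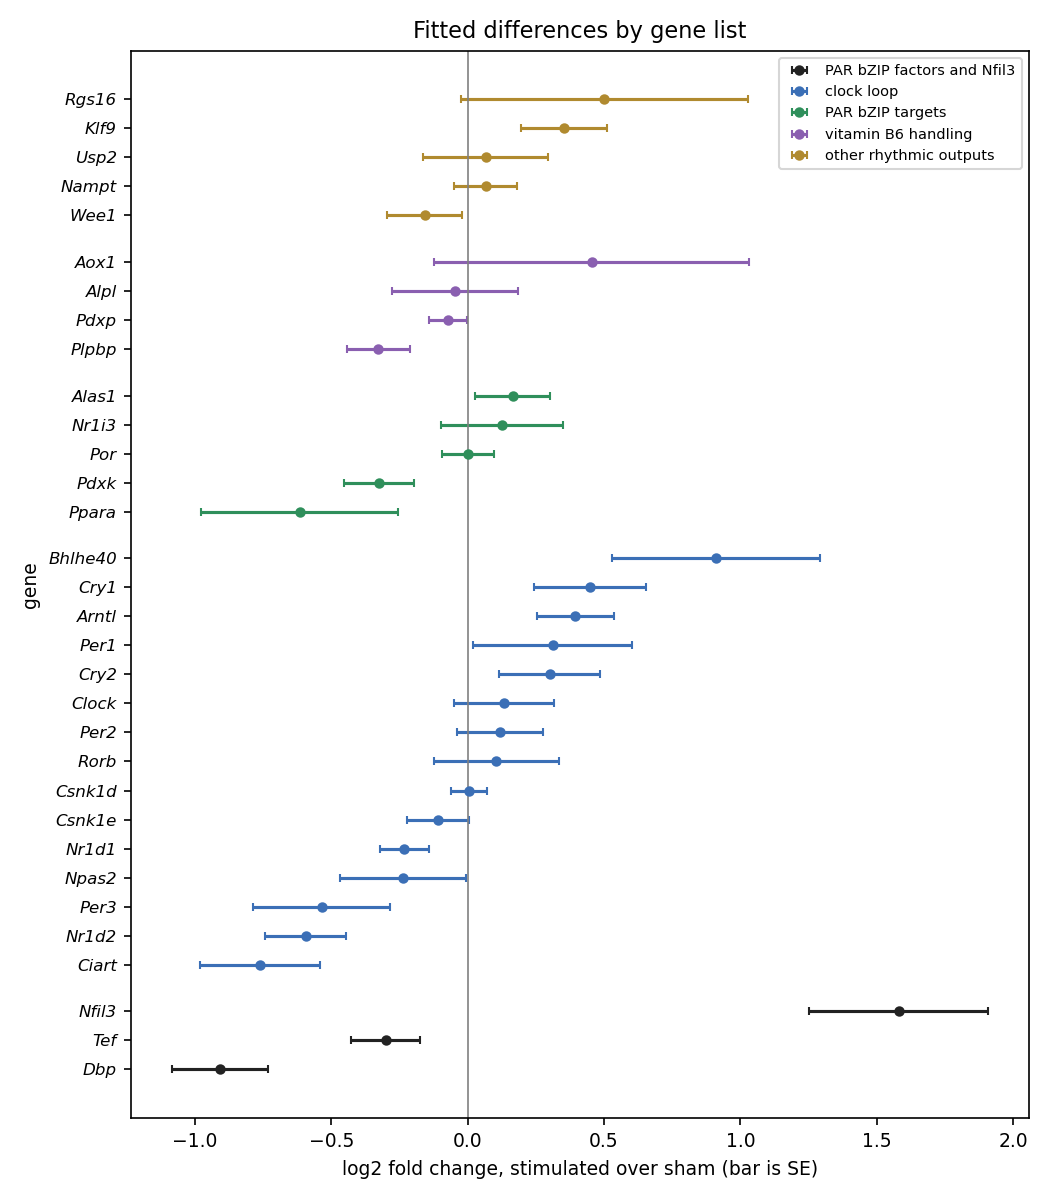
Fitted log2 fold change, stimulated over sham (horizontal axis, bars are SE), of genes (vertical axis) of the members, the clock loop, PAR targets, vitamin B6 handling and other rhythmic outputs. Dbp at -0.91 and Nfil3 at 1.58, which were selected for this difference, lie at the ends. Ciart, Nr1d2 and Pdxk lie below 0, as do other genes such as Ppara (-0.62) and Per3 (-0.53).

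Other factors of the bZIP class were compared as the nearest relatives of the members by DNA-binding domain. Of 18, 3 were higher and 0 lower at an unadjusted p-value under 0.05 in edgeR, beside 6.7% and 3.16% of all tested features, and 0 had an adjusted one under 0.05. Without stimulated rat 6 the count was 6. Atf3, a stress- and injury-induced repressor, was counted at 0.175 to 1.58 CPM in sham rats and at 0.769, 26.3, 0.511, 8.06 and 2.79 CPM in stimulated rats 6 to 10, with a log2 fold change of 3.20 (SE 0.91, edgeR adjusted p = 0.380). Its high values were thus in the rats with high Nfil3 and Fos, and without rat 7 its log2 fold change was 1.85. Atf4, a regulator of the response to amino acid shortage, and Bach1, a repressor that senses haem, differed on the log2 scale by 0.45 (SE 0.17, edgeR adjusted p = 0.425) and 1.03 (SE 0.36, edgeR adjusted p = 0.414). Without stimulated rat 7 the log2 difference of Atf4 was 0.23 and its unadjusted p-value 0.0565. Cebpb and Cebpd, activators whose sites resemble the D-box, differed by 0.49 (SE 0.24) and 1.01 (SE 0.53) on the log2 scale and did not pass the unadjusted threshold.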

How the data were processed

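The file deposited by the authors holds counts of reads that were not normalized, 1 row per RefSeq identifier and 1 column per rat. As the methods describe, they aligned single reads of 36 cycles to the RN4 build with BWA and counted them with their own script. How shared reads and strand were treated was not stated, so overlapping genes are uncertain. Symbols came from the RefSeq table of GRCr8 (12970 tested rows) by identifier, 1 row per symbol, the highest mean count. The labels give 5 rats a group, more than the study's methods count for stimulated rats. They do not say which was left out, so all were used.

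The unaligned row was set aside. Features with a summed count under the 30th percentile (46 counts) were left out, as in the study. The groups were compared with edgeR 4.0.16 (quasi-likelihood, TMM, Benjamini-Hochberg, R 4.3.3). SEs were taken from the fold change and its F statistic. CPM used TMM-scaled library sizes, and log2 CPM a prior count of 2. Correlations used all 14400 permutations within groups (scipy 1.17.1, numpy 2.4.6). Scripts were tested on simulated data. Alternatives were RLE factors, library size alone, 2 filters, DESeq2 1.42.0, the likelihood ratio test, a Fos covariate, other correlation settings, and the omission of each rat. Named genes were the members, Fos, Pdxk, up to 8 genes per list with the smallest unadjusted p under 0.05, and the 5 most and 3 least like each member. Other named genes were chosen after their values were seen. Some genes counted in the lists are not reported here by name. P-values measure the spread between rats. The members and lists were chosen with earlier results of these data known.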

Additional observations from a re-analysis of the deposited data

Results flagged for a closer look

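Extreme rats were looked for in 48 groups of 5 values with Dixon's test, in which the distance of the extreme rat from its neighbour, divided by the range, has a critical value of 0.71. Chance alone gives 2.4 such groups, about 1 in 20, and 1 was found. Arc, an activity-dependent synaptic gene, stood at 1118 CPM in stimulated rat 9, a distance of 0.848 of the range. No group of Dbp, Tef or Nfil3 values was past the critical value.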

How the results depend on the processing

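The log2 fold changes of Dbp, Tef and Nfil3 kept their sign and moved by less than 1 SD under both other normalizations, both filters, DESeq2 and the likelihood ratio test. Across the 10 fits without 1 rat they ranged from -1.07 to -0.80, from -0.39 to -0.20 and from 1.28 to 1.76. With log2 CPM of Fos as a covariate Tef became 0.030 and Nfil3 0.30; the cause was not tested. Summing all rows of a symbol changes nothing for the members, each of which has 1 row, and was not run.

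Features past an adjusted p-value of 0.05 numbered 0 in edgeR's quasi-likelihood test (2214 had an unadjusted one under 0.05), 32 with DESeq2 and 119 with the likelihood ratio test. Of clock loop genes 5 to 7 had an unadjusted p-value under 0.05 in the other settings and 4 to 7 in the fits without 1 rat. For other bZIP factors that range was 2 to 6, with 6 without stimulated rat 6. The number of member and clock loop pairs past adjustment was 13 of 51 without removal of the group means, where the difference between the groups enters r, and 0 to 1 without 1 rat, with 1 without sham rat 3. The r of Dbp and Tef ranged from -0.20, without stimulated rat 7, to 0.66. No paired analysis was possible because the rats of the groups share no number in the labels. Depth limits Nfil3 most, at 119 to 929 counts per rat.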

Other observations

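Enzymes that need pyridoxal phosphate showed little difference between the groups. Of 13 tested, 1 was higher (Aadat, a kynurenine aminotransferase) and 0 were lower at an unadjusted p-value under 0.05 in edgeR, beside 6.7% and 3.16% of all tested features, and the median log2 fold change was -0.03. Aadat had a log2 fold change of 0.46 (SE 0.21, edgeR adjusted p = 0.501), and its unadjusted p-value was above 0.05 in 7 of the 10 fits without 1 rat, with RLE size factors (0.0502) and among features with at least 10 counts in 5 rats (0.0507). Gad1, which makes the transmitter GABA with this cofactor, was counted at 164.6 ± 17.2 CPM on average in sham against 141.9 ± 24.2 CPM in stimulated animals (mean ± SD, n = 5 each), a log2 fold change of -0.21 (SE 0.12, edgeR adjusted p = 0.563).

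Of 5 tested genes that cycle in many tissues, 1 was higher and 0 lower at an unadjusted p-value under 0.05, beside 6.7% and 3.16% of all tested features. Klf9, a factor induced by glucocorticoids, was counted at 128.9 to 172.5 CPM in sham rats and at 142.1, 226.8, 144.4, 233.6 and 249.03 CPM in stimulated rats 6 to 10, with the higher values in rats 7, 9 and 10. Its log2 fold change was 0.35 (SE 0.16, edgeR adjusted p = 0.488), and its unadjusted p-value was above 0.05 in 7 of the 10 fits without 1 rat. Usp2, a deubiquitinase whose transcription often follows that of Dbp, had a log2 fold change of 0.07 (SE 0.23, edgeR adjusted p = 0.948), with its highest value, 75.95 CPM, in stimulated rat 9.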
